A study of Mus musculus with 101 samples.

Results

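The comparison described here set epididymal white fat of Inhbe knockout (KO) mice against that of wild-type (WT) mice, both on a high-fat diet (HFD). It was picked by the labels alone and rests on 16 of the 101 RNA sequencing libraries of the series, 8 per genotype. All mice were male, of the C57BL/6NTac strain, and were listed as untreated. Epididymal libraries of 8 WT and 7 KO mice on chow, and subcutaneous libraries of 7 WT and 8 KO mice on HFD, served to ask whether the effect of genotype differed between diets and between depots. The chow epididymal libraries also entered the model of the HFD comparison, where they shared in the estimate of the spread and in the choice of genes tested. The sources used here do not give the age of the mice, the make-up or length of the diet or how the KO allele was built. Sample titles number the replicates as biological ones without saying more, and p-values measure the spread between libraries.

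Inhbe encodes the beta E subunit of the inhibin family, which pairs with itself to form activin E, a ligand of the TGF-beta family that the liver secretes. Ligands of the activin class bind a type II and a type I receptor, and the type I receptor then phosphorylates SMAD2 and SMAD3, which enter the nucleus and switch genes on or off. ALK7, the product of Acvr1c, is a type I receptor of this class that fat cells carry, and it is known for restraining lipolysis, the release of fatty acids from stored triglyceride. In obese mice the epididymal depot is known to gather macrophages that take up lipid, to lay down matrix and to lose expression of many fat cell genes. The title of the series places the study on how activin E bears on fat distribution and lipolysis, and the comparison asks what its absence does to gene expression in an obese visceral depot.

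Levels are CPM, the counts of a gene for every 1000000 counts of its library, and are written as the lowest, the median and the highest of the libraries of a group. Effects are log2 fold changes of KO over WT with their standard error (SE), from edgeR's quasi-likelihood test over 15042 genes, and a gene "rose" or "fell" when its Benjamini-Hochberg adjusted p was under 0.05. Over all genes tested 17% rose and 20.2% fell, and each count of list members that rose or fell is to be read beside these shares.

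The 16 libraries held totals of 12970509 to 19680968 estimated counts, so that 3 counts, the limit that a count of 0 allows, stood for at most 0.231 CPM. That limit covers counting error only. The targeted gene Inhbe (Entrez 16326, chromosome 10, 127349402 to 127351848, GRCm38.p6) is a liver transcript and could not check the genotype in fat: it had 2 counts in 1 WT library and 0 in the other 15. The label of fat held: 12 adipocyte markers summed to between 13049 and 39959 CPM in every library. WT libraries 4 and 5 carried liver RNA, with albumin (Alb) at 814 and 3261 CPM and apolipoprotein A-I (Apoa1) at 73.1 and 252 CPM. In the other 6 WT libraries Alb lay between 0.870 and 1.36 CPM and Apoa1 between 0 and 0.0706 CPM. Among the KO libraries Alb was 14.2 to 17.4 CPM in 7, with Apoa1 at no more than 0.395 CPM, and library 8 had 43.7 CPM of Alb and 3.40 CPM of Apoa1. Crisp1, an epididymis gene, exceeded 10 CPM in WT libraries 2, 3, 7 and 8 and in KO libraries 3, 6, 7 and 8, 4 libraries of each genotype. The nuclear RNA Malat1 was low in WT library 3 (503 CPM) and in KO libraries 4 (424 CPM) and 8 (844 CPM), against 1750 to 3437 CPM in the other 13. KO library 4 also held less of long transcripts: the median deviation from its group was -0.67 on the log2 scale over 1007 genes with transcripts of at least 5000 bases and 0.28 over 2801 genes of at most 1500 bases. Counts of genes were therefore repeated without these libraries, and the text gives many of the changes but not all.

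**Figure D1:**
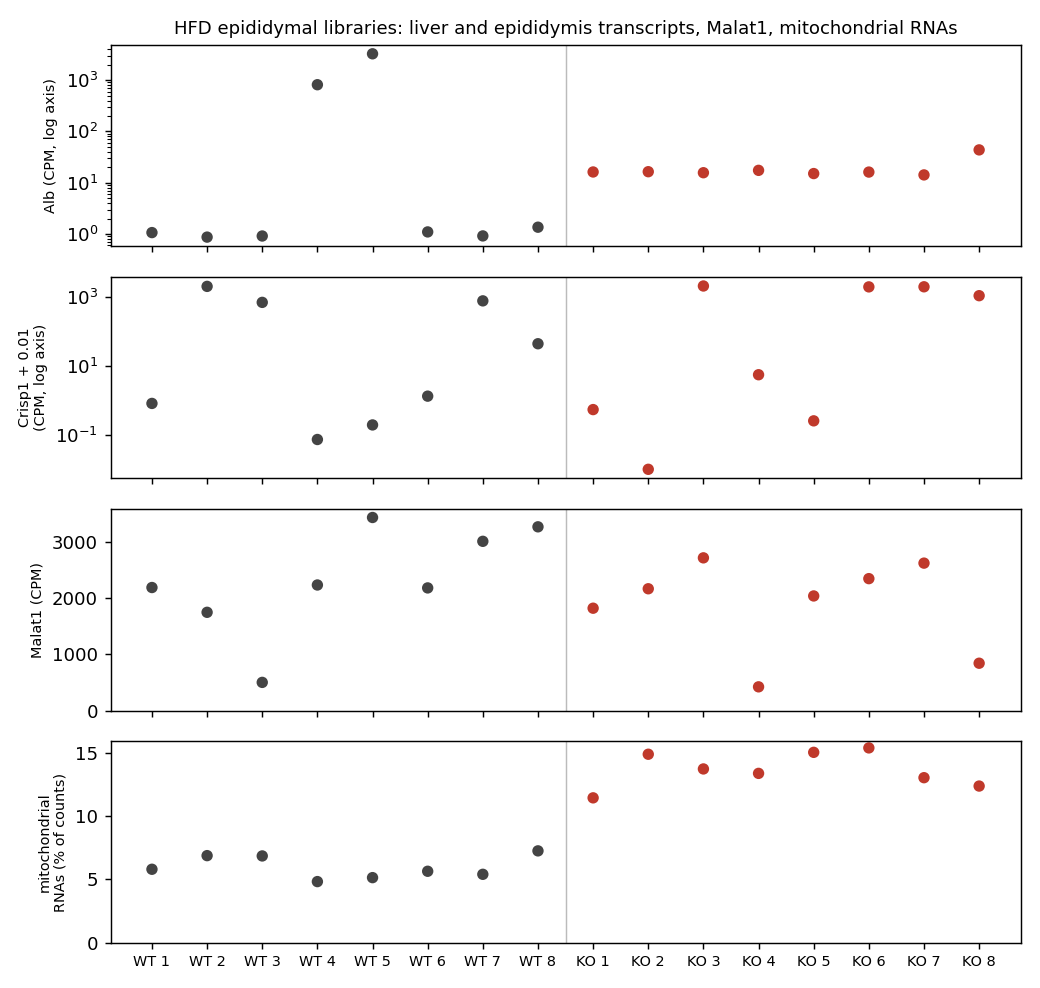
Each point is 1 HFD epididymal library, WT in grey on the left and KO in red on the right. The panels show Alb and Crisp1 in CPM on log axes (0.01 CPM was added to Crisp1), Malat1 in CPM, and the share of counts from the 13 mitochondrially encoded mRNAs in percent. Alb reached 814 and 3261 CPM in WT libraries 4 and 5, and the mitochondrial share was 4.83 to 7.26% in WT and 11.4 to 15.4% in KO.

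A large part of the transcriptome of this depot differed between the genotypes on HFD. Of 15042 genes tested 5590 were called, which is 37.2%, with 2559 higher in KO (17%) and 3031 lower (20.2%). At an unadjusted p under 0.05 there were 6649 genes, or 44.2%. Most changes were moderate: the median absolute log2 fold change of the called genes was 0.60, and 1313 genes (8.73%) were called and at least 2-fold apart, 421 higher and 892 lower. At least 4-fold apart were 211 called genes. In CPM all 8 KO libraries lay above all 8 WT libraries for 543 of the called genes and below them for 1522. Over all 15042 genes tested these numbers were 544 and 1593. CPM are scaled by library totals and not by TMM, so the balance of these numbers cannot be set beside that of the calls. Fitted to the 16 HFD libraries alone, without those on chow, 4813 of 13954 genes were called, 2411 higher and 2402 lower. Without the 2 liver-carrying libraries 4682 genes were called, and without libraries over 10 CPM of Crisp1, with 4 libraries left per genotype, 4580. Scaled by library totals alone, the median log2 fold change of all genes moved from 0.00596 to -0.168 and the calls became 1547 higher and 5029 lower. Changes are given relative to the TMM scaling, which centres the bulk of genes near 0.

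Of 13 receptor genes of the family 1 rose and 4 fell, beside 17% and 20.2% over all genes. The list is too short to compare such shares closely. Acvr1c (Entrez 269275, chromosome 2, 58267453 to 58357896), the gene of ALK7, had 36.5, 96.2 and 136 CPM in WT and 72.5, 266 and 303 CPM in KO. It rose by 1.52 ± 0.25, adjusted p = 1.5e-05, and the ranges overlapped through KO library 4 alone, since the other 7 KO libraries lay above every WT library. Its chow medians were 365 CPM in WT and 425 CPM in KO. Acvr1b, which encodes the related type I receptor ALK4, fell from 24.1, 29.3 and 37.0 CPM to 10.2, 15.3 and 17.9 CPM with no overlap (-0.90 ± 0.09, adjusted p = 3.79e-09). Tgfbr1, the type I receptor for TGF-beta itself, fell as well (-0.79 ± 0.18, adjusted p = 0.000632), and so did Tgfbr2, its type II partner (-0.43 ± 0.13, adjusted p = 0.0109), which was not called without the libraries over 10 CPM of Crisp1. Without the libraries low in Malat1 3 receptor genes rose, and without those over 10 CPM of Crisp1 2 fell. Among 15 tested ligands and antagonists 1 rose and 3 fell, or 5 with limma-voom and by library totals. Tgfb1, the ligand TGF-beta 1, went from 111, 117 and 143 CPM to 33.5, 44.8 and 70.8 CPM and its groups did not overlap (-1.14 ± 0.15, adjusted p = 3.2e-07). Fstl1, a secreted follistatin-like protein, fell by 0.97 ± 0.14, adjusted p = 1.28e-06. Gdf3, a ligand known to act through ALK7, was scarce and fell from 1.93, 3.42 and 5.12 CPM to 0.139, 0.742 and 1.32 CPM (-1.97 ± 0.42, adjusted p = 0.000403), a call lost without the libraries over 10 CPM of Crisp1 (adjusted p = 0.0574). The 1 rise, Bmp4, was small (0.56 ± 0.19, adjusted p = 0.0221) and was lost in several alternatives, with an adjusted p of 0.0755 without the liver-carrying libraries.

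Genes known to respond to SMAD2 and SMAD3 moved down as a group: of 16 tested 12 fell and 1 rose, with a median log2 fold change of -0.71 beside 0.00596 over all genes. The fall was deepest for Pmepa1 (Entrez 65112, chromosome 2, 173224458 to 173276731), a membrane protein induced by TGF-beta that damps SMAD signalling. Its 8 WT libraries held 212, 283 and 315 CPM and its 8 KO libraries 30.2, 41.7 and 47.8 CPM, a gap without overlap (-2.59 ± 0.13, adjusted p = 1.78e-14). Emp1, an epithelial membrane protein, fell from 504, 601 and 696 CPM to 123, 173 and 240.1 CPM (-1.61 ± 0.17, adjusted p = 6.61e-09). Nedd9, a docking protein of focal adhesions, had 71.4, 96.8 and 158 CPM in WT and 16.3, 32.4 and 43.6 CPM in KO (-1.59 ± 0.18, adjusted p = 4.65e-08). In none of these 3 genes did a KO library reach the WT range. Cdkn2b, the cell cycle inhibitor p15, went the other way (0.51 ± 0.15, adjusted p = 0.00684) with ranges that overlapped (8.88 to 13.9 CPM and 10.2 to 17.9 CPM). It was not called once the 3 libraries low in Malat1 were left out (adjusted p = 0.0657). Markers of macrophages also fell in these libraries, by values given further on, and their part in the fall of this list was not tested. Of 9 targets of the BMP branch of the family, which signals through other SMADs, 2 rose and none fell. By library totals 2 fell, and without the libraries low in Malat1 1 fell. The rises were Id1 (0.46 ± 0.10, adjusted p = 0.000498) and Id3 (0.53 ± 0.16, adjusted p = 0.00987), inhibitors of basic helix-loop-helix factors, and Id3 was not called without the libraries low in Malat1 (adjusted p = 0.0642).

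The start regions of Emp1 and Nedd9 are shown because both genes fell in every KO library below every WT library and both hold the letters CAGAC, the core of the element that SMAD3 and SMAD4 bind. Each sequence is the 250 bases before the first listed RefSeq start of the gene (GRCm38.p6), read 5′ to 3′ on its strand. CAGAC or its reverse complement GTCTG is in capitals. For Nedd9 that start lies inside the span of the gene, which reaches further upstream, and other starts were not read. Emp1 is on the + strand at chr6:135362681-135362930 and has 3 matches, and Nedd9 is on the - strand at chr13:41359002-41359251 and has 1.
Emp1: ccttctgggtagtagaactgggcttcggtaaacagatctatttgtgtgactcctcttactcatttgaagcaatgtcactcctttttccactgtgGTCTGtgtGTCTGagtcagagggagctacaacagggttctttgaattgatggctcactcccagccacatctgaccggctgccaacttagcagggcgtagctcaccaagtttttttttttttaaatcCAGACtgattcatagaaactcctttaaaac
Nedd9: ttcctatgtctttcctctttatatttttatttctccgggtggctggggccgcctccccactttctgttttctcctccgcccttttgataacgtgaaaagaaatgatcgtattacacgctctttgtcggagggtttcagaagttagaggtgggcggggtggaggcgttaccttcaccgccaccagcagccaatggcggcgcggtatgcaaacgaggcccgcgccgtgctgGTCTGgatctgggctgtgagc
The letters are common: 42.1% of 27025 mouse promoters of this length hold CAGAC on either strand. Of the 9 list members with a promoter entry 7 did, and a match describes letters, not binding.

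Imprinted genes, which are expressed from the copy of 1 parent only, moved in both directions. Mest (Entrez 17294, chromosome 6, 30733506 to 30748466), a gene tied to the expansion of fat cells, fell from 521, 774 and 1069.8 CPM in WT to 148, 253 and 419.8 CPM in KO (-1.52 ± 0.19, adjusted p = 1.28e-07). Its groups were apart, and its median in KO fat on chow was 11.5 CPM. Peg3, a zinc finger gene, fell from 37.0, 70.9 and 172 CPM to 2.08, 8.15 and 16.8 CPM (-3.10 ± 0.33, adjusted p = 1.26e-08). Klf14, a transcription factor gene in the same region of chromosome 6 as Mest but not adjoining it, fell by 1.80 ± 0.37, adjusted p = 0.000234 from a low level (4.75 to 13.5 CPM in WT, 0.424 to 4.2 CPM in KO). Igf2r, the receptor that clears IGF2, fell with no overlap (-0.79 ± 0.09, adjusted p = 3.82e-08). Of 18 imprinted genes tested 8 fell and 3 rose, the rises including Ndn (0.72 ± 0.17, adjusted p = 0.001) and Copg2 (0.42 ± 0.06, adjusted p = 6.9e-07). The median of the list was -0.11.

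Genes of fat breakdown were higher in KO. Of 20 lipolysis genes 15 rose and 1 fell, beside 17% and 20.2% over all genes, with a median of 0.79. Adrb3, the adrenergic receptor through which sympathetic nerves start lipolysis in mouse fat, had 17.8, 39.6 and 55.1 CPM in WT and 137, 203 and 296 CPM in KO. Every KO library exceeded every WT library, and the rise was 2.65 ± 0.23, adjusted p = 4.39e-10. Pnpla2 encodes ATGL, the enzyme that removes the first fatty acid from triglyceride, and it went from 657, 872 and 1084 CPM to 1317, 1762 and 3381 CPM (1.35 ± 0.18, adjusted p = 6.85e-07). Its coactivator Abhd5 rose by 0.87 ± 0.12, adjusted p = 9.94e-07. Lipe, the hormone-sensitive lipase that acts next, had 482, 625 and 775 CPM in WT and 921, 1074 and 1759.8 CPM in KO (1.05 ± 0.16, adjusted p = 3.34e-06), again with no overlap. The 1 fall was Adcy3, an adenylate cyclase that makes the cAMP signal, from 69.8 to 87.9 CPM to 27.9 to 53.8 CPM (-0.76 ± 0.16, adjusted p = 0.000411).

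The enzymes that make fat rose along with those that break it down. Of 21 lipogenesis genes 15 rose and none fell (median 0.90). With limma-voom, without the libraries low in Malat1 and by library totals 1 fell. Thrsp, a nuclear protein that promotes lipogenesis, had 54.3, 114 and 177 CPM in WT and 628, 802 and 1446 CPM in KO (3.08 ± 0.24, adjusted p = 5.35e-11). Fasn, the fatty acid synthase, reached 5514, 7357 and 12492 CPM in KO against 1292, 1680.2 and 2108 CPM in WT (2.40 ± 0.27, adjusted p = 3.25e-08). Acaca, whose enzyme supplies malonyl-CoA for that step, rose by 2.11 ± 0.21, adjusted p = 3.86e-09. No WT library came near the KO range of any of these 3 genes. Among 13 genes of triglyceride synthesis 11 rose and 1 fell (median 1.19), and none fell without the liver-carrying libraries. Mogat1, a monoacylglycerol acyltransferase, was scarce in WT (2.4, 4.61 and 5.95 CPM) and higher in KO (10.1, 15.2 and 29.4 CPM; 2.13 ± 0.21, adjusted p = 3.15e-09). Dgat1, which adds the last fatty acid, rose by 1.28 ± 0.17, adjusted p = 4.08e-07, and Pck1, which makes the glycerol backbone in fat, by 1.47 ± 0.20, adjusted p = 5.6e-07. Pck1 in KO on HFD had 664, 789 and 1010.2 CPM and in WT on chow a median of 2749 CPM.

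Proteins that coat or shape the lipid droplet split. Of 11 tested 5 rose and 1 fell. Cidea, which fuses droplets, went from 0.792, 1.95 and 2.39 CPM in WT to 8.69, 12.6 and 25.9 CPM in KO (3.14 ± 0.27, adjusted p = 2.53e-10). Plin1, the main coat protein of fat cell droplets, rose by 0.97 ± 0.15, adjusted p = 8.43e-06 without overlap. Hilpda, a hypoxia-inducible inhibitor of ATGL, fell from 13.1, 20.7 and 25.9 CPM to 4.73, 7.2 and 9.56 CPM (-1.32 ± 0.17, adjusted p = 4.05e-07). Of 11 genes of fatty acid uptake 7 rose and none fell, while by library totals 4 rose and 1 fell. Acsl1, an acyl-CoA synthetase, rose by 0.71 ± 0.13, adjusted p = 8.24e-05 and Fabp4, the fatty acid binding protein of fat cells, by 0.74 ± 0.15, adjusted p = 0.000165.

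**Figure D2:**
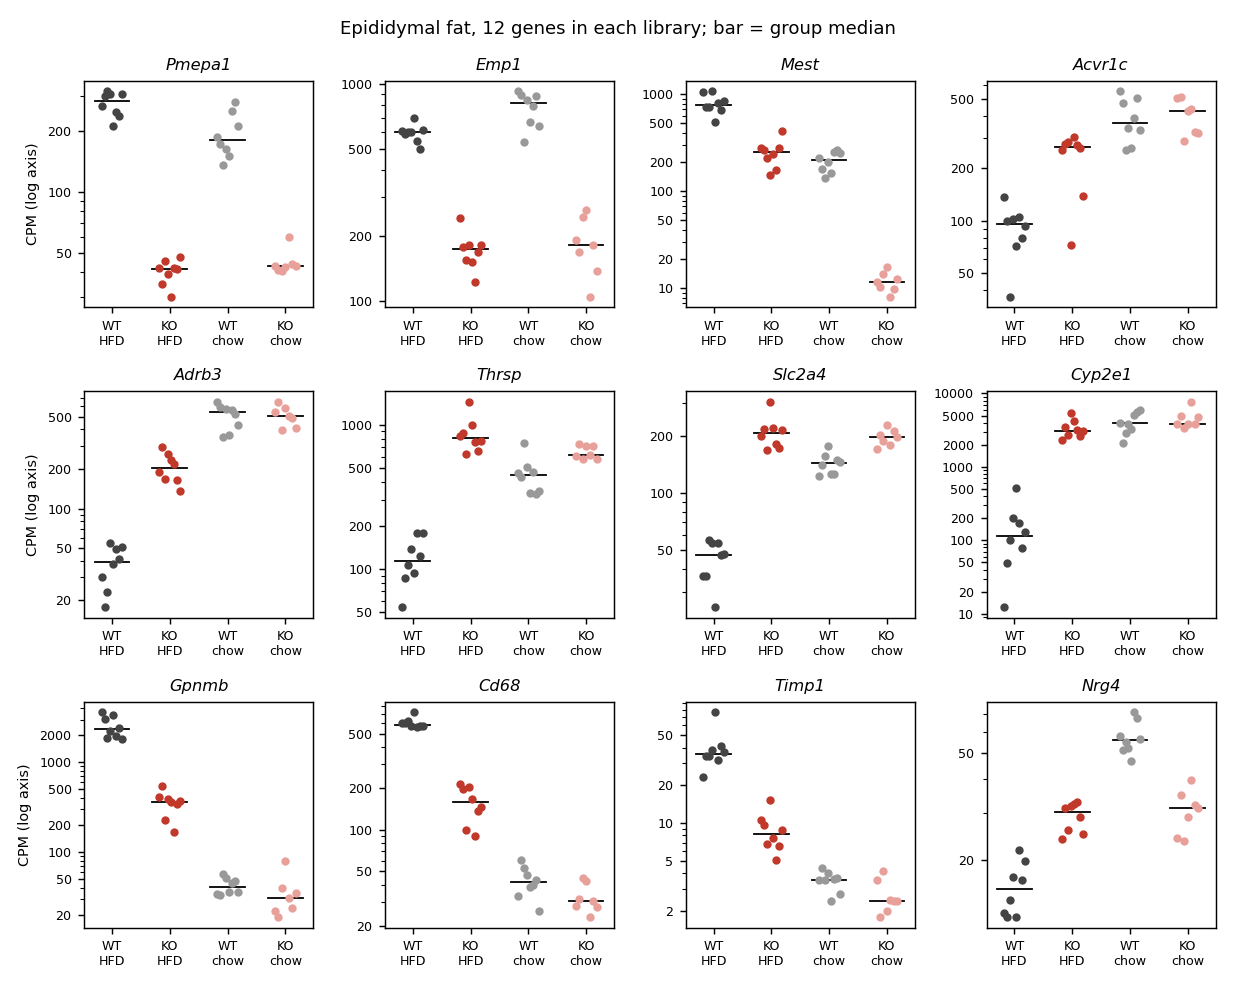
Levels of 12 genes in each epididymal library in CPM on log axes, with the group median as a bar, for WT and KO on HFD and on chow (8, 8, 8 and 7 libraries). Pmepa1, Emp1 and Mest are lower in KO on both diets, while WT on HFD has the lowest medians of Adrb3, Slc2a4 and Cyp2e1 and the highest of Gpnmb and Cd68; Acvr1c medians run from 96.2 CPM in WT on HFD to 425 CPM in KO on chow.

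Glucose uptake and glycogen genes were higher in KO. Slc2a4 encodes GLUT4, the insulin-responsive glucose transporter, and it had 25.0, 47.4 and 56.8 CPM in WT and 169.5, 208 and 304 CPM in KO (2.44 ± 0.16, adjusted p = 4.1e-12). The lowest KO library stood well above the highest WT library, and the KO median exceeded that of WT on chow (144 CPM). Irs1, which relays the signal of the insulin receptor, rose by 1.06 ± 0.15, adjusted p = 2.02e-06, and Grb14, an adaptor that inhibits that receptor, rose by 1.30 ± 0.16, adjusted p = 1.62e-07. Akt1, 1 of the kinases of this pathway, fell by 0.48 ± 0.09, adjusted p = 0.000131. In all 11 of 16 genes for insulin signalling and glucose uptake rose and 1 fell, with 8 rises without libraries over 10 CPM of Crisp1. Of 11 glycogen genes 8 rose and none fell (median 0.99). Pygl, a glycogen phosphorylase, had 77.3, 109 and 122 CPM in WT and 299, 322 and 389 CPM in KO (1.84 ± 0.12, adjusted p = 4.1e-12). Gys1, the glycogen synthase, rose by 1.31 ± 0.14, adjusted p = 7.92e-09 and Ppp1r3c, which targets a phosphatase to glycogen, by 1.88 ± 0.21, adjusted p = 2.42e-08.

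Nuclear genes of mitochondrial metabolism rose almost without exception. All 24 oxidative phosphorylation genes tested, all encoded in the nucleus, rose, with log2 fold changes from 0.36 to 1.05. They did so in every alternative counted by list, which did not include leaving out 1 library. Sdha, a subunit of complex II, had 301, 329 and 359 CPM in WT and 500.1, 569 and 741 CPM in KO (1.01 ± 0.10, adjusted p = 4.9e-09). Uqcrc2, of complex III, rose by 0.93 ± 0.09, adjusted p = 3.35e-09 and Ndufs1, of complex I, by 0.90 ± 0.08, adjusted p = 1.29e-09. Of 19 fatty acid oxidation genes 18 rose and 1 fell (median 0.86). Cpt2, the carnitine transferase of the inner membrane, rose by 1.26 ± 0.14, adjusted p = 2.08e-08. The fall was Cpt1a, its partner of the outer membrane in the form known from liver, from 210.3, 264 and 293 CPM to 149, 178 and 208 CPM (-0.39 ± 0.07, adjusted p = 3.48e-05). All 16 genes tested for the breakdown of branched-chain amino acids, a fuel for fat cells, rose (median 1.00). Bcat2, the transaminase of the first step, went from 52.4, 71.9 and 75.7 CPM to 168, 193 and 316 CPM (1.85 ± 0.17, adjusted p = 7.49e-10), and Ivd, of the leucine branch, rose by 1.70 ± 0.13, adjusted p = 3.85e-11.

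The mitochondrial genome followed. Its 13 mRNAs, a set chosen after its values were seen, were all called higher, by 1.00 to 1.64 on the log2 scale. The groups did not overlap for 11 of them, beside 544 of all 15042 genes tested that lay higher without overlap. Together the 13 made up 4.83 to 7.26% of the counts in WT (median 5.73%) and 11.4 to 15.4% in KO (median 13.5%). COX1, a subunit of cytochrome c oxidase, had 14569, 17334 and 23234 CPM in WT and 34728, 42744 and 48791 CPM in KO (1.42 ± 0.11, adjusted p = 5.94e-11), and CYTB, of complex III, rose by 1.64 ± 0.12, adjusted p = 2.31e-11. None of the 13 was called on chow, and the effect differed between diets for all 13.

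Thermogenic genes, those of heat-producing brown or beige fat, were mixed. Of 14 tested 7 rose and 2 fell. Dio2, the deiodinase that activates thyroid hormone in brown fat, went from 0.965, 3.06 and 4.35 CPM in WT to 6.24, 19.6 and 25.9 CPM in KO (2.76 ± 0.27, adjusted p = 3.46e-09). Cox8b, a muscle and brown fat subunit of complex IV, rose by 2.14 ± 0.25, adjusted p = 4.11e-08. Ucp1, the uncoupling protein that defines these cells, stayed near the bottom of detection, with 0.315, 0.716 and 3.46 CPM in WT and 1.25, 1.91 and 2.64 CPM in KO (1.04 ± 0.79, adjusted p = 0.326). Its groups overlapped through WT library 1, and limma-voom with quality weights called the rise (log2 fold change 1.53, adjusted p = 0.00273). Gatm, of creatine synthesis, fell by 1.01 ± 0.15, adjusted p = 3.56e-06 and Otop1, a proton channel, by 1.00 ± 0.27, adjusted p = 0.00358, the latter not called without libraries over 10 CPM of Crisp1 (adjusted p = 0.0816).

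Markers of the fat cell itself made up a larger share of the RNA in KO. All 12 adipocyte markers rose, and their summed level was 13049 to 21536 CPM in WT and 31952 to 39959 CPM in KO, with no overlap. In whole tissue, fewer cells of a type and less RNA per cell cannot be told apart. The marker list shares genes with those of lipolysis and uptake, and the part of the adipocyte share in the metabolic lists above was not tested. Car3, a carbonic anhydrase abundant in lean fat, had 1242, 3189 and 3655 CPM in WT and 4862, 11548 and 13235 CPM in KO (2.09 ± 0.21, adjusted p = 5.12e-09). Of 9 hormones secreted by fat 7 rose and none fell. Retn, which encodes resistin, went from 82.0, 144 and 184 CPM to 483, 579.7 and 1009 CPM (2.35 ± 0.18, adjusted p = 5.35e-11), and Rbp4, a retinol carrier, rose by 2.11 ± 0.21, adjusted p = 4.51e-09. Cfd, or adipsin, rose by 1.66 ± 0.25, adjusted p = 2.74e-06 to 236, 297 and 735 CPM, with a chow median of 5231 CPM in WT. Nrg4, a growth factor of the EGF family released by fat, rose from 12.2, 15.5 and 21.8 CPM to 23.8, 30.0 and 32.7 CPM (1.06 ± 0.15, adjusted p = 9.41e-07). Leptin (Lep), whose level follows fat cell size, was not called: WT had 2113, 2855 and 3952 CPM, KO had 1815, 2476 and 3306 CPM and the log2 fold change was -0.08 ± 0.22, adjusted p = 0.823.

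Among 15 transcription factors of fat cell differentiation 8 rose (5 by library totals) and 1 fell. Klf15, a glucocorticoid-responsive factor, was the firmest, with 12.0, 20.1 and 25.2 CPM in WT and 42.9, 47.4 and 53.2 CPM in KO (1.47 ± 0.13, adjusted p = 7.24e-10). The circadian clock list changed too: 9 of 16 rose and 1 fell. Nr1d1, a repressor of the clock, rose from 73.4, 86.1 and 108 CPM to 134, 149 and 214 CPM (1.03 ± 0.25, adjusted p = 0.00169), while Npas2, a relative of the clock activator Clock, fell by 1.09 ± 0.24, adjusted p = 0.00061. Cry2, a repressor, rose by 0.63 ± 0.10, adjusted p = 1.03e-05 and Tef, an output factor of the clock, by 0.56 ± 0.12, adjusted p = 0.000309. The call of Tef was lost without libraries over 10 CPM of Crisp1 (adjusted p = 0.0664). Only 2 clock genes rose when libraries over 10 CPM of Crisp1 were left out, and 4 rose when libraries were scaled by totals alone. The labels do not state at what time of day fat was taken. Tef is shown for its E-box, the letters CACGTG bound by the clock activators, which read the same on both strands and stand in 6.05% of the 27025 promoters and in 5 of the 14 clock genes with a promoter entry. It lies on the + strand, and these are the 250 bases before its first listed RefSeq start at chr15:81802423-81802672 (GRCm38.p6), with the E-box in capitals.
Tef: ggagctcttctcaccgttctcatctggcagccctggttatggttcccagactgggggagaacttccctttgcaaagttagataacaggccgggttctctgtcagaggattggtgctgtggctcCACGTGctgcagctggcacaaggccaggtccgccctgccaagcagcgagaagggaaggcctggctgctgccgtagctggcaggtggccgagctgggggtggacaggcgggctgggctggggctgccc

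**Figure D3:**
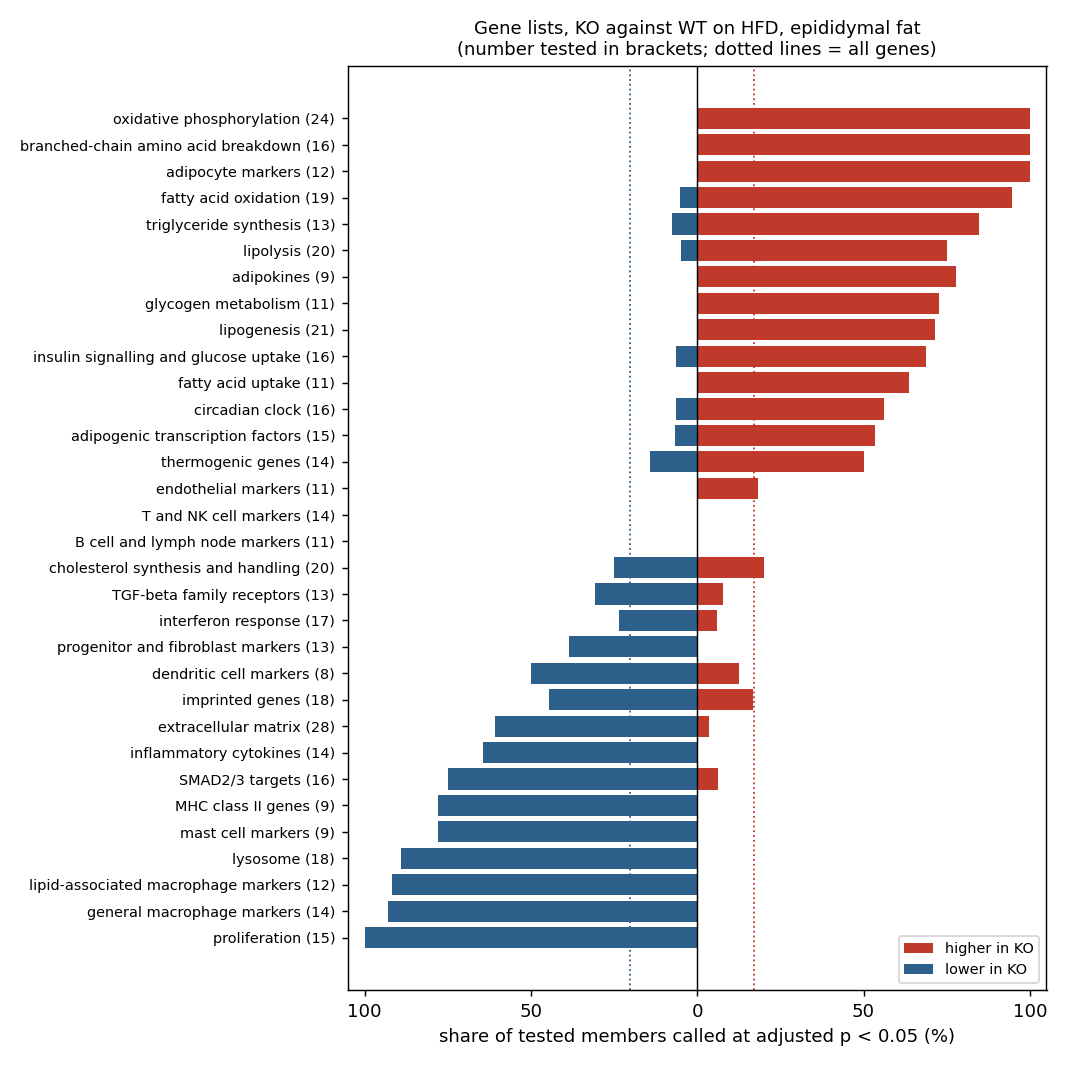
Share of the tested members of 32 gene lists called higher (red, right) or lower (blue, left) in KO than in WT on HFD, in percent, with the number tested in brackets; dotted lines mark the 17% and 20.2% called higher and lower over all genes. Oxidative phosphorylation, branched-chain amino acid breakdown and adipocyte markers reach 100% higher and proliferation 100% lower.

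Macrophage genes were far lower in KO. Of 14 general macrophage markers 13 fell and none rose (median -1.30), and their summed level was 4167 to 5712 CPM in WT and 1081 to 2699 CPM in KO. Cd68, a lysosomal glycoprotein of macrophages, had 557, 582 and 719.9 CPM in WT and 90.3, 158 and 217 CPM in KO (-1.72 ± 0.20, adjusted p = 3.71e-08). Itgam, the integrin CD11b, fell by 1.77 ± 0.16, adjusted p = 8.95e-10. Of 12 markers of lipid-associated macrophages, the cells that gather round dying fat cells in obesity, 11 fell, with a median of -2.20, and all 11 did so without overlap. Over all 15042 genes tested 1593 lay lower without overlap. The sum of the 12 markers was 5839 to 9982 CPM in WT and 1118 to 2246 CPM in KO. Trem2, the lipid receptor of these cells, had 124, 143 and 182 CPM in WT and 12.7, 29.5 and 48.5 CPM in KO (-2.12 ± 0.21, adjusted p = 3.46e-09). Gpnmb, a glycoprotein of lipid-laden macrophages, went from 1816, 2329 and 3654 CPM to 168, 363 and 546 CPM (-2.67 ± 0.27, adjusted p = 5.31e-09). Mmp12, the macrophage elastase, fell by 2.92 ± 0.41, adjusted p = 1.55e-06 and Itgax, the integrin CD11c, by 2.30 ± 0.23, adjusted p = 2.87e-09. The KO minimum for Gpnmb on HFD, 168 CPM, exceeded the WT chow maximum of 56.6 CPM. The 1 marker of this list that was not called was Fabp5, with a log2 fold change of 0.32.

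Markers of resident macrophages did not move together: of 9 tested 3 fell and 1 rose, beside 20.2% and 17% over all genes. Mrc1, the mannose receptor, fell with overlapping ranges (202 to 376 CPM and 52.5 to 232 CPM; -0.89 ± 0.19, adjusted p = 0.000358). Cbr2, a carbonyl reductase, rose (0.62 ± 0.21, adjusted p = 0.019), but was not called without KO library 4 (adjusted p = 0.0821). Of 14 inflammatory cytokines 9 fell and none rose. Ccl2, the chemokine that draws monocytes in, had 23.8, 35.4 and 50.8 CPM in WT and 5.27, 8.51 and 14.7 CPM in KO (-1.81 ± 0.27, adjusted p = 3.29e-06), and Il1rn, the interleukin-1 receptor antagonist, fell by 2.23 ± 0.30, adjusted p = 8.19e-07. Without libraries over 10 CPM of Crisp1 the count was 4. Of 18 lysosome genes 16 fell and none rose, and the part of the macrophage share in this was not tested. Ctsl, the protease cathepsin L, went from 1474, 1963 and 2281 CPM to 507, 665 and 738 CPM (-1.37 ± 0.11, adjusted p = 1.64e-10). Gla, the alpha-galactosidase, fell by 1.47 ± 0.11, adjusted p = 2.31e-11. All 15 proliferation genes fell (median -1.33), among them Ccna2, cyclin A2, from 19.6, 24.8 and 31.9 CPM to 5.55, 7.58 and 13.6 CPM (-1.53 ± 0.13, adjusted p = 2.99e-10) and Pcna, the sliding clamp of DNA polymerase, by 1.10 ± 0.09, adjusted p = 1.74e-10. Which cells divided was not tested.

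Among markers of other immune cells, 7 of 9 for mast cells fell. Cpa3, their carboxypeptidase, had 17.5, 30.1 and 59.7 CPM in WT and 3.24, 8.11 and 15.7 CPM in KO (-1.81 ± 0.23, adjusted p = 3e-07), and the protease Mcpt4 fell by 1.64 ± 0.22, adjusted p = 5.26e-07. Their summed level was 90.3 to 247 CPM in WT and 36.7 to 84.3 CPM in KO, and chow fat lay at 71.5 to 112 CPM in WT. Of 9 MHC class II genes, which present antigen, 7 fell, such as H2-DMb1 (-1.14 ± 0.15, adjusted p = 3.15e-07) and the invariant chain Cd74 (-0.79 ± 0.19, adjusted p = 0.00163). That count dropped to 1 without libraries over 10 CPM of Crisp1, where 1 other rose, and was 7 with the level of epididymis markers as a covariate. Only 3 of 9 neutrophil markers passed the low-count filter, and 2 of them fell, among them S100a8 (-1.28 ± 0.24, adjusted p = 8.99e-05). None of 14 T and NK cell markers and none of 11 B cell and lymph node markers was called, while 2 of the latter rose with limma-voom and without the libraries low in Malat1. The summed T and NK level was 19.3 to 65.7 CPM in WT and 10.6 to 83.8 CPM in KO. Cd4, of helper T cells, had 1.67, 3.1 and 8.28 CPM in WT and 1.4, 3.67 and 10.5 CPM in KO (0.50 ± 0.34, adjusted p = 0.268). Cd28, a T cell co-stimulator, was at 3.39 to 6.96 CPM and 1.27 to 8.63 CPM (-0.67 ± 0.35, adjusted p = 0.145), and it was called lower without KO library 1 (adjusted p = 0.00283), with the replicate number as a block (-0.93, adjusted p = 0.0488) and with limma-voom (adjusted p = 0.0381). Of 17 interferon response genes 4 fell (7 by library totals) and 1 rose, beside 20.2% and 17% over all genes. Oas1a, a sensor of double-stranded RNA, fell by 1.07 ± 0.20, adjusted p = 6.62e-05, and Ifi27l2a rose by 1.11 ± 0.23, adjusted p = 0.000274.

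**Figure D4:**
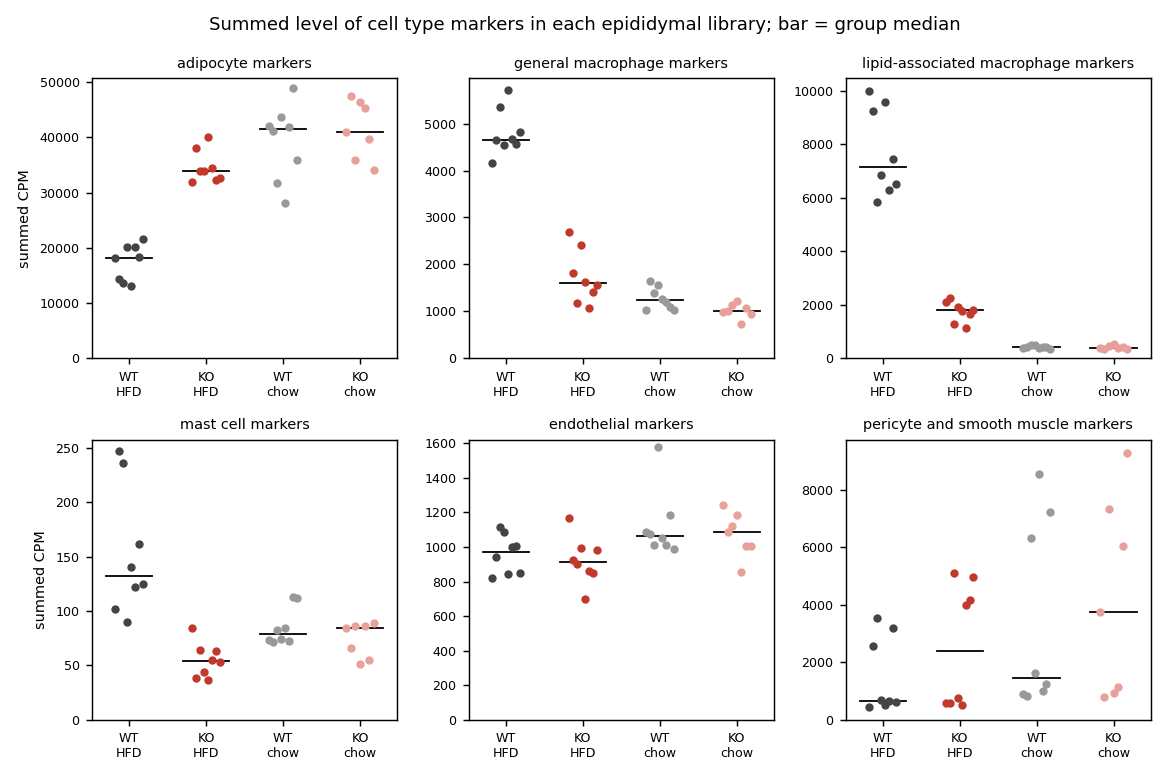
Summed CPM of 6 marker lists in each epididymal library, with the group median as a bar, for WT and KO on HFD and on chow. On HFD the sums of adipocyte, general macrophage, lipid-associated macrophage and mast cell markers do not overlap between genotypes, those of endothelial markers do (823 to 1117 and 697 to 1166 CPM), and pericyte and smooth muscle sums run from 461 to 3531 CPM in WT and from 527 to 5106 CPM in KO.

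Matrix genes were lower in KO. Of 28 extracellular matrix genes 17 fell and 1 rose (median -0.75). The falls numbered 14 without the liver-carrying libraries and 14 without those over 10 CPM of Crisp1, and 25 with limma-voom and by library totals. Timp1, an inhibitor of matrix proteases, had 23.3, 35.4 and 76.9 CPM in WT and 5.09, 8.18 and 15.2 CPM in KO (-1.97 ± 0.23, adjusted p = 4.97e-08). Col3a1, a fibrillar collagen, went from 3998, 4422 and 6491 CPM to 1503, 1924 and 3035 CPM (-1.03 ± 0.14, adjusted p = 6.33e-07). Comp, a matrix protein of cartilage and fibrotic tissue, fell by 3.85 ± 0.37, adjusted p = 1.85e-09 (2.4 to 19.6 CPM in WT, 0.304 to 1.54 CPM in KO). Of 13 markers of progenitors and fibroblasts 5 fell, among them Lum, a small proteoglycan, with overlapping ranges (233 to 483 CPM and 48.3 to 298 CPM; -1.11 ± 0.20, adjusted p = 6.13e-05). Without libraries over 10 CPM of Crisp1 that count was 1, and by library totals 8. Of 11 endothelial markers 2 rose, among them Kdr, the VEGF receptor (0.53 ± 0.12, adjusted p = 0.00061). Without libraries over 10 CPM of Crisp1 no endothelial marker was called, and Kdr had an adjusted p of 0.0604. Pericyte and smooth muscle markers had 1 call of 8, mesothelium 1 of 10, skeletal muscle 2 of 12 and epididymis 0 of 5. Of the mesothelium markers 5 of 10 rose without the libraries low in Malat1 and 4 of 10 without both kinds of doubted library, those low in Malat1 and those carrying liver RNA. The smooth muscle sum was 461 to 3531 CPM in WT and 527 to 5106 CPM in KO, and the epididymis sum 0.315 to 2360 CPM in WT and 0.401 to 2078 CPM in KO, so that neither separated the genotypes.

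Secreted proteins of the acute phase went in opposite directions. Hp, haptoglobin, which fat makes in quantity, fell from 3213, 5045 and 6084 CPM to 749, 933 and 1625 CPM (-2.04 ± 0.17, adjusted p = 1.64e-10). Saa3, a serum amyloid of fat and macrophages, fell by 3.00 ± 0.56, adjusted p = 7.93e-05. Orm1, an orosomucoid, rose from 85.9, 126 and 173 CPM to 182, 235 and 326 CPM (1.02 ± 0.21, adjusted p = 0.000212); it shares much of its sequence with Orm2 and Orm3, and the split of reads between them is uncertain. Atf3, a stress-induced factor, fell from 124, 148 and 193 CPM to 17.3, 31.7 and 45.5 CPM (-2.04 ± 0.18, adjusted p = 6.9e-10) as 1 of 4 immediate early genes of 9 that fell, a count of 2 without libraries over 10 CPM of Crisp1 and of 7 by library totals. Of 20 cholesterol genes 4 rose and 5 fell, near the 17% and 20.2% over all genes, or 2 and 3 without libraries over 10 CPM of Crisp1. Fdft1, which makes squalene, rose by 0.68 ± 0.10, adjusted p = 4.77e-06. Igf1, a growth factor that fat macrophages also make, fell by 0.70 ± 0.17, adjusted p = 0.00147, and the growth hormone and IGF list had 2 rises and 3 falls among 10. The unfolded protein response list had 2 rises and 4 falls among 10. It had no falls without libraries over 10 CPM of Crisp1, 2 without the liver-carrying libraries and no rises without those low in Malat1. Of 10 hypoxia genes 1 rose and 3 fell, of 8 dendritic cell markers 1 rose and 4 fell, and without libraries over 10 CPM of Crisp1 1 of each list fell. The growth hormone, unfolded protein response, hypoxia and dendritic cell lists are too short to set closely beside the 17% and 20.2% over all genes. Of 8 Schwann cell markers 1 rose and 1 fell. Of 4 red blood cell genes 3 rose, but 1 of 4 with limma-voom, without the libraries low in Malat1 and without both kinds. None of 5 sperm and testis genes was called.

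Some of the widest gaps were in single genes. Cyp2e1 (Entrez 13106, chromosome 7, 140763819 to 140774990), a cytochrome P450 that fat cells express, had 12.3, 116 and 521 CPM in WT and 2290.1, 3115 and 5441 CPM in KO (4.62 ± 0.48, adjusted p = 8.01e-09; 5.42 without the liver-carrying libraries). The KO median came close to the 3917 CPM of WT on chow. Ces1d, a carboxylesterase with triglyceride hydrolase activity, rose from 151, 221 and 274 CPM to 779.7, 899.9 and 1248 CPM (2.35 ± 0.16, adjusted p = 1.04e-11). Nap1l5, an imprinted gene outside the list above, rose by 3.37 ± 0.28, adjusted p = 1.28e-10, from 0.661 to 2.33 CPM to 4.47 to 21.2 CPM. Mrgprg and Asb12 rose from close to 0: Mrgprg had 0 to 0.152 CPM in WT and 0.416 to 5.86 CPM in KO, and Asb12 0.0687 to 0.441 CPM and 1.02 to 4.21 CPM. The deepest fall outside liver genes was Gpr50 (Entrez 14765, chromosome X, 71663667 to 71669257), an orphan receptor of the melatonin receptor family. It had 36.8, 65.1 and 92.9 CPM in WT and 0.231, 0.88 and 2.92 CPM in KO (-5.57 ± 0.41, adjusted p = 2.31e-11; -6.93 without libraries over 10 CPM of Crisp1), and on chow its medians were 0.339 CPM in WT and 0.127 CPM in KO. Lipf, gastric lipase, fell from 9.79, 15.3 and 18.9 CPM to 0.516, 1.13 and 1.54 CPM (-3.64 ± 0.40, adjusted p = 2.05e-08). Slc5a7, the choline transporter, fell from 73.0, 181 and 260.0 CPM to 17.9, 57.4 and 71.7 CPM (-1.57 ± 0.31, adjusted p = 0.000138).

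Genes known from liver took the other 11 places among the 12 largest falls. All 7 liver markers tested fell, and for 6 of them the ranges overlapped. Without the liver-carrying libraries 1 of 6 fell. Alb had a log2 fold change of -4.57 ± 1.29, adjusted p = 0.00589 with all libraries, and 4.38, adjusted p = 7.58e-12, without WT libraries 4 and 5, so that its direction turned on them. Hpx, hemopexin, was the exception: WT had 2.46, 7.1 and 122 CPM, and its 6 libraries without liver RNA still lay at 2.46 to 8.94 CPM against 0.243 to 1.82 CPM in KO (-5.13 ± 0.73, adjusted p = 1.74e-06 with all libraries, and -3.16, adjusted p = 8.58e-06, without WT libraries 4 and 5). Other liver genes are not described as falls here.

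On chow the same genotype contrast, tested in the same fit with 8 WT and 7 KO libraries, called 99 genes (0.658%), 26 higher and 73 lower. The spread is shared over the 4 groups, and without the HFD library KO 4 there were 188 chow calls, 88 higher and 100 lower, and without the 3 HFD libraries low in Malat1 222, 98 higher and 124 lower. The values that follow are from the fit with all libraries. Of the 99, 73 were also called on HFD, which is 73.7% of the chow calls and 1.31% of the HFD calls. Of the 73, 67 went the same way on both diets, 20 up and 47 down. The shared falls included SMAD2 and SMAD3 targets. Pmepa1 on chow had a median of 180.1 CPM in WT and 42.9 CPM in KO (-2.08 ± 0.14, adjusted p = 5.38e-12). Emp1 (-2.05 ± 0.18, adjusted p = 4.97e-09) fell on chow as well. Peg3 (-2.20 ± 0.33, adjusted p = 0.000202) and Klf14 (-2.74 ± 0.41, adjusted p = 0.000202) did too. Of the rises, Fasn (1.39 ± 0.27, adjusted p = 0.00593), Dio2 (2.04 ± 0.29, adjusted p = 6.95e-05) and Cidea (1.30 ± 0.26, adjusted p = 0.00746) were shared. Adipocyte, general macrophage, oxidative phosphorylation, fatty acid oxidation and proliferation lists had no call on chow, with medians of 0.06, -0.27, 0.18, 0.10 and -0.09. At an unadjusted p under 0.05 there were 921 genes on chow, or 6.12%.

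The effect of genotype differed between diets for 2487 of 15042 genes (16.5%), 1178 with a more positive effect on HFD (7.83%) and 1309 with a more negative one (8.7%). The balance depended on scaling and libraries: it was 847 and 2313 by library totals, and 1466 and 2267 without the libraries low in Malat1. At least 2-fold apart were 813 of them (5.4%). Over the lists the difference was called for 15 of 15 proliferation genes, 19 of 24 oxidative phosphorylation genes, 15 of 16 of branched-chain amino acid breakdown, 11 of 14 general and 11 of 12 lipid-associated macrophage markers, and 4 of 16 SMAD2 and SMAD3 targets. The firmest positive differences were in Disp2 (2.48 ± 0.24, adjusted p = 2.04e-07), Aldh5a1 (1.24 ± 0.13, adjusted p = 3.06e-07), Car1 (2.55 ± 0.27, adjusted p = 3.06e-07) and Mest (2.57 ± 0.27, adjusted p = 3.06e-07). Mest fell on both diets, and further on chow (-4.09 ± 0.22, adjusted p = 6.62e-14). Slc5a7 did likewise, with -4.49 ± 0.49, adjusted p = 9.59e-07 on chow and a difference of 2.92 ± 0.59, adjusted p = 0.00081. Ctsk, a lysosomal protease (-1.81 ± 0.19, adjusted p = 3.06e-07), Cd9, a tetraspanin (-1.49 ± 0.14, adjusted p = 2.04e-07), Stxbp2 (-1.06 ± 0.11, adjusted p = 3.06e-07) and C2cd2 (-1.05 ± 0.11, adjusted p = 3.06e-07) had the firmest negative differences. For Adrb3 the difference was 2.61 ± 0.32, adjusted p = 2.52e-06, for Cyp2e1 4.41 ± 0.62, adjusted p = 1.44e-05, for Gpr50 -4.75 ± 0.92, adjusted p = 0.000552 and for Acvr1c 1.46 ± 0.36, adjusted p = 0.00464. Genes with opposite calls numbered 6, all higher in KO on HFD and lower in KO on chow, and 4 of them are described here. Nrg4 had chow medians of 55.8 CPM in WT and 31.2 CPM in KO (-0.87 ± 0.15, adjusted p = 0.00131), and its difference between diets was 1.93 ± 0.21, adjusted p = 4.15e-07. Disp2, a relative of the Hedgehog release factor, had chow medians of 19.8 and 6.87 CPM and HFD medians of 2.5 and 4.85 CPM. Alas1, of heme synthesis (1.03 ± 0.20, adjusted p = 0.000472), and Inmt, a methyltransferase (1.77 ± 0.28, adjusted p = 6.68e-05), were the others. The HFD call of Alas1 was lost with limma-voom (adjusted p = 0.201), without the libraries low in Malat1 (0.154), without both kinds, by library totals (0.134) and without KO library 4 (0.0536).

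**Figure D5:**
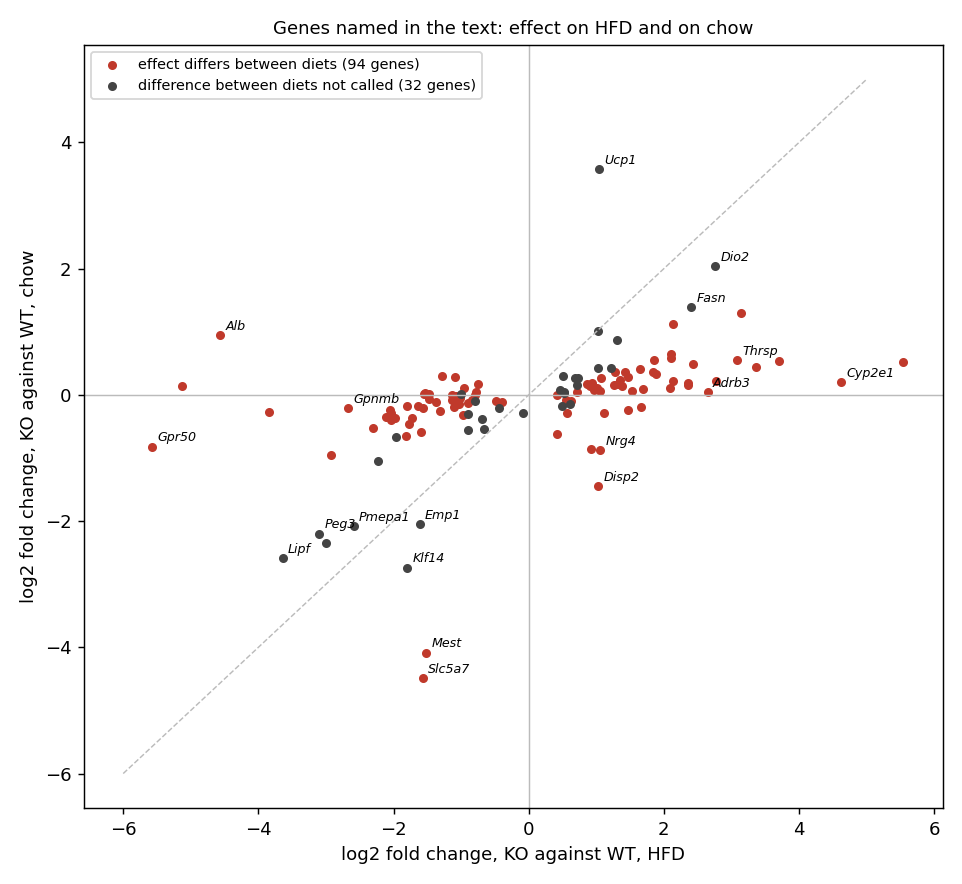
Log2 fold change of KO over WT on HFD (x axis) against the same on chow (y axis) for 126 genes named in the text, with genes whose effect differed between diets at an adjusted p under 0.05 in red; the dashed line marks equal effects. Most red genes lie near 0 on chow, while Pmepa1, Emp1, Peg3 and Klf14 lie near the dashed line and Mest and Slc5a7 below it, at -4.09 and -4.49 on chow.

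Between depots on HFD the effect of genotype differed for 1704 of 14620 genes (11.7%), 1079 more positive in epididymal fat (7.38%) and 625 more negative (4.27%). With limma-voom the numbers were 1902 and 1921, and without both kinds of doubted library 448 and 353. At least 2-fold apart were 652 of them (4.46%). Krt79, a keratin, had the firmest difference (2.62 ± 0.24, adjusted p = 4e-08): its median went from 13.4 to 24.3 CPM in epididymal fat and from 14.3 to 5.36 CPM in subcutaneous fat. Retn had a more positive effect in epididymal fat (2.10 ± 0.25, adjusted p = 7.85e-06), where WT was far lower than in subcutaneous fat (medians of 144 and 439 CPM), and so had Ces1d (1.46 ± 0.17, adjusted p = 7.85e-06). Mest had a less negative effect in epididymal than in subcutaneous fat (3.24 ± 0.36, adjusted p = 2.85e-06), with subcutaneous medians of 1245 CPM in WT and 48.4 CPM in KO, and Klf14, from the same region, showed the same (2.67 ± 0.56, adjusted p = 0.00225). Saa3 had a less negative effect in epididymal fat too (2.20 ± 0.61, adjusted p = 0.0169), with subcutaneous medians of 8.11 CPM in WT and 0.163 CPM in KO. Adrb3 had a more positive effect in epididymal fat (1.13 ± 0.35, adjusted p = 0.0323), and so had Id1 (1.40 ± 0.24, adjusted p = 0.000387). The firmest negative differences were in Pacc1, a proton-activated channel (-1.29 ± 0.17, adjusted p = 4.06e-05), Nfya, a CCAAT-binding factor (-0.94 ± 0.13, adjusted p = 7.1e-05), Btk, a kinase of B cells and myeloid cells (-2.04 ± 0.29, adjusted p = 7.1e-05), and Actr3, of the actin nucleator ARP2/3 (-0.89 ± 0.13, adjusted p = 7.84e-05). Btk medians were 32.8 and 9.29 CPM in epididymal WT and KO and 11.6 and 15.1 CPM in subcutaneous WT and KO. A difference was called for 12 of 15 proliferation genes, 10 of 12 adipocyte markers and 13 of 20 lipolysis genes, and for 1 of 14 general macrophage markers. Without the 2 liver-carrying libraries 1040 genes differed between depots. None of the 13 receptor genes of the family was called for this difference, and of the 16 SMAD2 and SMAD3 targets 3 were.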

How the data were processed

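Estimated counts per gene, 1 column per library, are the values as deposited by the authors; 2.93% of them were not whole numbers (tolerance 1e-06). The genome build is mm10 per the submitters' processing notes, and the sources used here name no aligner or counter. Per the labels' protocols, libraries were made from mRNA with adapters that carry molecular identifiers, and it is not stated whether these were used in counting. Counts were planned for; estimated counts were rounded. Entrez IDs gave symbols from RefSeq GRCm38.p6 for 24375 of 24475 IDs, and the other 100 were kept. Between 0.606 and 1.66% of the counts of an HFD epididymal library lay in IDs without a symbol.

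The main model was edgeR's quasi-likelihood test (edgeR 4.0.16, R 4.3.3) with TMM scaling and filterByExpr (minimum count 10, minimum total 15), fitted to all 31 epididymal libraries of the KO experiment. The depot model used 31 HFD libraries and treated them as independent. The labels do not say whether epididymal and subcutaneous libraries came from the same mice. Each adjusted p is Benjamini-Hochberg over all genes tested. Alternatives used DESeq2 1.42.0, limma 3.58.1 and other scalings, filters and libraries, and those without libraries of liver, low Malat1 or Crisp1, and by library totals, were chosen after seeing the data. The main model was tested on simulated data for the KO versus WT contrast on HFD alone. The other contrasts, the depot model and the alternatives were not tested in this way.

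The members and lists were chosen with earlier results of these data known. Named genes were Inhbe and Acvr1c, the 12 largest rises and 12 largest falls whose mean over the 16 libraries reached 1 CPM, for each list up to 4 called or 2 uncalled members by p, defining markers, and up to 4 genes of each sign for each interaction. Outside this rule, and chosen after their values were seen, are Klf14, Slc5a7, Lipe, Adcy3, Cpt1a, COX1, CYTB, Ucp1, Lep, Trem2, Gpnmb, Mmp12, Comp, Lipf, Cdkn2b, Gatm, Otop1, Tgfbr2, Ndn, Akt1, Alas1, Inmt, Malat1 and Fabp5. Of the largest rises, Tdg-ps2, a pseudogene whose reads may belong to its parent gene, is not described.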

Additional observations from a re-analysis of the deposited data

Results flagged for a closer look

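In 126 genes named in the report, and 2 groups each, the highest or lowest of 8 libraries was looked at for a gap to its neighbour above Dixon's critical share of the range of the group. That happened in 31 of 252 cases, 8 in WT and 23 in KO. Chance flags about 1 in 20 groups, and the genes are not independent.

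KO library 4, the library low in Malat1 and in long transcripts, accounted for 17 of the 31. It was the highest KO library for 15 genes. Its level was 1760 CPM for Lipe, 29.4 CPM for Mogat1, 348 CPM for Dgat1, 25.9 CPM for Cidea and 1093 CPM for Plin1. It was 304 CPM for Slc2a4, 185 CPM for Gys1, 231 CPM for Ivd, 316 CPM for Bcat2 and 1009 CPM for Retn. It was 735 CPM for Cfd, 69.4 CPM for Cbr2, 1164 CPM for Ifi27l2a, 214 CPM for Nr1d1 and 369 CPM for Alas1. The same library was the lowest of its group for Tgfbr1, at 14.6 CPM, and Slc5a7, at 17.9 CPM. Of these 17 genes, the calls of Cbr2 and Alas1 on HFD were lost without this library, with adjusted p = 0.0821 and 0.0536 by edgeR.

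KO library 1 was the highest of its group for Col3a1 (3035 CPM), Ccna2 (13.6 CPM), Pcna (75.5 CPM) and Cd28 (8.63 CPM). KO library 8 was the highest for Alb (43.7 CPM) and Hpx (1.82 CPM). Among WT libraries, number 5 was the highest for Cd68 (720.0 CPM), Col3a1 (6491 CPM) and Nfya (70.6 CPM). WT library 3 was the lowest for Slc5a7 (73.0 CPM) and Lum (233 CPM) and the highest for Akt1 (171 CPM). WT library 1 was the highest for Ucp1 (3.46 CPM), and WT library 8 the lowest for Igf2r (217 CPM).

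The effect of genotype differed between diets by the interaction term for 94 of the 126 named genes. For the 16 whose difference the report describes, it is given as the log2 effect on HFD minus that on chow. The differences were 2.48 for Disp2, 1.24 for Aldh5a1, 2.55 for Car1, 2.57 for Mest, 4.41 for Cyp2e1, 2.61 for Adrb3, 2.92 for Slc5a7 and 1.93 for Nrg4. They were 1.46 for Acvr1c, 1.03 for Alas1 and 1.77 for Inmt. Negative differences were -1.81 for Ctsk, -1.49 for Cd9, -1.06 for Stxbp2, -1.05 for C2cd2 and -4.75 for Gpr50. Between depots 58 of the 126 differed, and for the 12 that the report describes the difference is given as epididymal minus subcutaneous. The values were 2.62 for Krt79, 2.10 for Retn, 1.46 for Ces1d, 3.24 for Mest, 2.67 for Klf14, 2.20 for Saa3, 1.13 for Adrb3 and 1.40 for Id1. They were -1.29 for Pacc1, -0.94 for Nfya, -2.04 for Btk and -0.89 for Actr3.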

How the results depend on the processing

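Over 126 named genes and their alternatives, 3489 of 3527 pairs kept direction and call, and 15 genes changed somewhere. Alb reversed with limma-voom (1.20), without the liver-carrying libraries (4.38) and without both kinds of doubted library (4.02). Lep, not called, ranged from -0.14 to 0.0050 when 1 library was left out. The HFD calls numbered 4580 to 6576 over the settings other than leaving out 1 library, and 5021 to 6127 when 1 was left out. By library totals they were 1547 higher and 5029 lower. With the mean log2 level of the epididymis markers as a covariate 5695 genes were called on HFD, and all 126 named genes kept direction and call. In that fit 9 cytokines and 7 MHC class II genes fell, and 8 clock genes and 2 endothelial markers rose. Leaving out the libraries over 10 CPM of Crisp1 left 4 per genotype. Whether calls were lost there through fewer libraries or through less epididymis RNA was not tested.

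The 99 chow calls became 182 with DESeq2, 257 with limma-voom, 222 without the libraries low in Malat1, 206 without both kinds and 159 by library totals. They ranged from 91 to 188 when 1 library was left out, the highest without KO HFD library 4. The 2487 diet differences became 3945 with limma-voom and 3733 without the libraries low in Malat1. They ranged from 2161 to 3399 when 1 was left out. The 1704 depot differences became 3823 with limma-voom, 1040 without the liver-carrying libraries, 801 without both kinds and 842 without libraries over 10 CPM of Crisp1. They ranged from 1239 to 1978 when 1 was left out. The cause of these shifts was not tested.

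With the replicate number as a block, 5634 genes were called on HFD, 97 on chow, 2595 for diet and 1506 for depot, and 5390 of the main HFD calls were kept. Same-numbered WT and KO libraries had correlations of deviations from -0.543 to 0.506, and 0 of 8 correlated best with their own number. WT and KO libraries come from different mice, so these values cannot show whether same-numbered libraries of the depots share a mouse. That was not tested. Levels under 0.231 CPM, 3 counts in the shallowest library, were below what this depth resolves.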
